A study of Rattus norvegicus with 20 samples.

Results

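Autophagy and lysosome genes were followed in rat white adipose tissue under graded food restriction. The set held 10 named genes: Becn1, Map1lc3a, Map1lc3b, Gabarap, Gabarapl1, Sqstm1, Bnip3, Lamp1, Lamp2 and Ctsd. Of these, 9 had at least 1 probe set annotated to them alone, and all 9 passed the filter on low signals. The array covered 10411 genes with a symbol. The members were represented by 15 of the 15866 probe sets analysed, 12 of them among the 9520 tested, and each gene is given by its brightest probe set on average. The only probe set that covered Map1lc3b was also annotated to its near copy Map1lc3b2, so it is given as a shared probe set and not counted as a member.

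The tissue came from male Wistar rats, an outbred strain, that started the experiment at 6 weeks of age. Control rats received the full recorded intake, and restricted rats received 5%, 10%, 20% or 30% less food, for 1 week or for 1 month. All rats, controls included, were fasted for 16 h before the fat was taken. Each of the 10 groups was a single pool of RNA from 5 rats, run on 2 chips that were technical repeats. The comparisons therefore rested on 10 pools, and all 4 restricted pools of a duration shared 1 control pool. Signals are given as log2 MAS5 signal, the Affymetrix software's summary of a probe set, averaged over the 2 chips of a pool.

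Autophagy delivers cytoplasmic material to the lysosome inside a double membrane, the autophagosome. Beclin 1 acts in the lipid kinase complex that starts the membrane, ATG8 family proteins (LC3 and GABARAP types) coat it, and receptors such as p62 and BNIP3 tie cargo to that coat. The lysosome then breaks the cargo down with acid hydrolases such as cathepsin D, behind a membrane rich in LAMP1 and LAMP2. The pathway is known for its activation by nutrient shortage, and many lysosomal genes carry an E-box in their promoters to which TFEB and related factors bind.

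Bnip3 rose most among the members, from a control log2 signal of 9.33 to between 10.03 and 10.57 in the restricted pools at 1 week, and from 9.64 to between 10.42 and 10.88 at 1 month. Gabarapl1 and Ctsd were also higher in the restricted pools than in the control pools by the limma test. Gabarap, Lamp1, Map1lc3a and Becn1 were not called in any fit on dose or restriction. Sqstm1 and Lamp2 lay above the control in all 8 restricted pools by their pool means but did not pass the test.

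The stretches of 250 bases before the transcription start are shown for the 3 genes called between restricted and control pools, and for Lamp1, whose stretch held the most E-boxes among the members. Sequences are those of RefSeq on build GRCr8, 5′ to 3′ on the gene's strand, with each CACGTG (the E-box core, which reads alike on both strands) in capitals. Bnip3 lies on the minus strand and the stretch covers chr1:203154963-203155212. Gabarapl1 lies on the plus strand (chr4:164666082-164666331). Ctsd lies on the minus strand (chr1:206968822-206969071), as does Lamp1 (chr16:83075064-83075313).
Bnip3: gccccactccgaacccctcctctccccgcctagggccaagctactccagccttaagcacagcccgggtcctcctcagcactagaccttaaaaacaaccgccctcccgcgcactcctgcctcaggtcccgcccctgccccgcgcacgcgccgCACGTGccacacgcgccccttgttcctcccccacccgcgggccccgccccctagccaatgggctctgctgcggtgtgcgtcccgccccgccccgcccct
Gabarapl1: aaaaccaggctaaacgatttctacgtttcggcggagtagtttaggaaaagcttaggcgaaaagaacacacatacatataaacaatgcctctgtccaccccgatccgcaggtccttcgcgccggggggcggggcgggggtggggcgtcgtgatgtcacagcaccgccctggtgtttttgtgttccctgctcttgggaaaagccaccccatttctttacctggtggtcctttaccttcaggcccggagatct
Ctsd: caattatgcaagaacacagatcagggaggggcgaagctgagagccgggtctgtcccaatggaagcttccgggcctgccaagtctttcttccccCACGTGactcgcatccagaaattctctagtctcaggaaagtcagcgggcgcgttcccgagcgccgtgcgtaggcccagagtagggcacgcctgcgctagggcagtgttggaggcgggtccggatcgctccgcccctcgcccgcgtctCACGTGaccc
Lamp1: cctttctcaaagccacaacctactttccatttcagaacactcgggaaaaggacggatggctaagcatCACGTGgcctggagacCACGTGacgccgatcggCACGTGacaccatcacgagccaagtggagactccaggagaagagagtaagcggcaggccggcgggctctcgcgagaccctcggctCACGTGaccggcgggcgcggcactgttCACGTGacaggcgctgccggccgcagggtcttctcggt
The first base of CACGTG stood at -99 from the start in Bnip3, at -157 and -10 in Ctsd, and at -183, -167, -150, -65 and -38 in Lamp1. Promoters of 8 of the 10 members were in the table used (not Becn1 and Map1lc3a), and the other 5 held no CACGTG. Of 33469 rat promoters of the same length, 5.59% held CACGTG, 0.430% held it 2 or more times, and 1 promoter, that of Lamp1, held it 5 or more times. A longer motif that extends CACGTG on both sides was also searched. It was found in 0.203% of promoters and in none of the 8 of the members. The forkhead-type motif TGTTTAC, searched on both strands, was found in 3.21% of promoters and in none of the 8 of the members. A match describes the letters only.

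Bnip3 encodes a mitochondrial outer membrane protein that binds ATG8 proteins and serves as a receptor for mitophagy. At 1 week its log2 signal was 9.33 in the control pool and 10.03, 10.38, 10.51 and 10.57 in the 5%, 10%, 20% and 30% pools. At 1 month it was 9.64 in the control pool and 10.42, 10.82, 10.88 and 10.88 in the restricted pools. Every restricted pool lay above its control, in both chips, by 1.63-fold to 2.37-fold, and the largest step between neighbouring levels was from control to 5% at both durations. The restricted pools exceeded the control pools by 1.08 ± 0.15 (SE) on the log2 scale (limma, adjusted p = 0.00576). The slope was 0.35 ± 0.079 per 10% of restriction at both durations (limma, adjusted p = 0.0229), and Bnip3 was the only member of 9 called for the slope. Of all tested probe sets, 9.4% were called for this slope, 5.71% upward and 3.69% downward. Over the 8 restricted pools alone the slope was 0.17 (limma, adjusted p = 0.188).

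Gabarapl1, an ATG8 protein of the GABARAP type, was at a log2 signal of 7.79 in the controls of 1 week and at 8.16, 8.50, 8.48 and 8.63 in the restricted pools in rising order of restriction. At 1 month the control pool was at 7.97 and the restricted pools at 8.72, 8.92, 8.69 and 8.60. All 8 restricted pools were above their control in both chips, by 1.29-fold to 1.92-fold, and at 1 month the highest level was at 10% rather than 30%. Restricted pools exceeded controls by 0.71 ± 0.12 (limma, adjusted p = 0.0123), whereas the dose slope of 0.18 ± 0.072 was not called (adjusted p = 0.123).

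Gabarap itself, the founding member of that branch, stayed between 9.62 and 9.89 in all 10 pools. Its difference between restricted and control pools was -0.039 (95% interval -0.21 to 0.13), and its sign turned with median centring of the chips. Map1lc3a, one of the LC3 genes, had a difference of 0.097 (95% interval -0.096 to 0.29) and was higher in both chips in 3 of 8 restricted pools. For both genes these intervals lay below the estimate for Gabarapl1; the differences between members were not tested.

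The probe set shared by Map1lc3b and Map1lc3b2 gave log2 signals of 8.15 for the 1 week controls and 8.27, 8.38, 8.49 and 8.73 in the restricted pools. At 1 month it was at 8.13 in the control pool and at 8.37, 8.66, 8.54 and 8.67 in the restricted pools. It was above its control in both chips in all 8 pools and its dose slope was 0.17 ± 0.035 (limma, adjusted p = 0.0187). Its difference between restricted and control pools, 0.38 ± 0.12, was not called (limma, adjusted p = 0.0773). Signal of the LC3B gene and of its copy cannot be told apart in this probe set. Its slope is given from the main fit only, so how far the call depended on single pools or on cell type markers is not shown. Over all tested probe sets, 895 were called for this slope in the main fit. With a lymphocyte or a macrophage marker score in the model 167 and 83 were called. Without the 10% pool at 1 month 1921 were called.

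**Figure D1:**
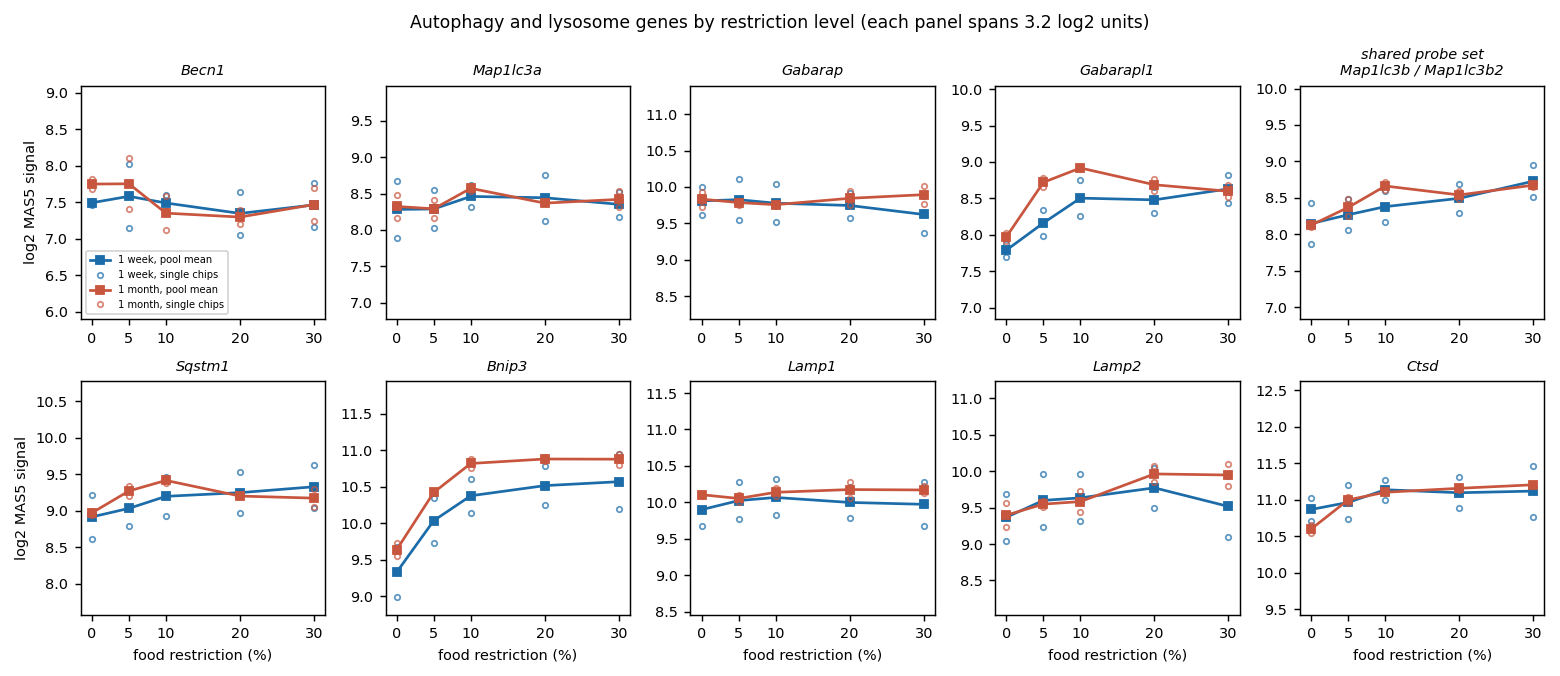
Log2 MAS5 signal (vertical axis) against food restriction in percent (horizontal axis) for the 9 members and the shared Map1lc3b and Map1lc3b2 probe set; squares joined by lines are pool means at 1 week (blue) and 1 month (red), and open circles are single chips. Bnip3 and Gabarapl1 step up between the control and the lowest levels at both durations, while Gabarap and Lamp1 stay within 9.62 to 10.18. The paired circles at 1 week lie apart in most panels; each chip set had its own scale.

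Sqstm1 encodes p62, the receptor that links ubiquitin-tagged cargo to LC3. Its log2 signal at 1 week was 8.92 in the control pool and 9.03, 9.20, 9.25 and 9.33 in the restricted pools, and at 1 month 8.97 and then 9.27, 9.42, 9.20 and 9.17. It was above its control in both chips in all 8 restricted pools, by 1.08-fold to 1.36-fold, and peaked at 30% at 1 week but at 10% at 1 month. The difference of 0.29 ± 0.092 did not pass the test (limma, adjusted p = 0.0777). Its dimmer probe sets did not repeat this. The next brightest was higher in both chips in 3 of 8 restricted pools and lower in 4, and the third was higher in 1 and lower in 4. The third says little about changes of this size. Its pool signals were only 16.7 to 42.1, and its chip SD was 0.567 against 0.0781 for the brightest.

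Ctsd encodes cathepsin D, the main aspartic protease of the lysosome. At 1 week its log2 signal was 10.87 in the control pool and 10.96, 11.14, 11.10 and 11.12 in the restricted pools. At 1 month it was 10.60 in the control pool and 11.00, 11.10, 11.16 and 11.21 in the restricted pools. All restricted pools were above their control in both chips, by 1.07-fold to 1.52-fold. The restricted pools exceeded the controls by 0.36 ± 0.089 (limma, adjusted p = 0.0395), and the dose slope of 0.12 ± 0.038 was not called (adjusted p = 0.0718).

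Lamp2, a lysosomal membrane protein whose protein also serves chaperone-mediated autophagy, was at 9.37 in the control pool at 1 week and at 9.60, 9.63, 9.77 and 9.52 in the restricted pools, and at 1 month at 9.40 and then 9.55, 9.58, 9.96 and 9.95. It was higher in both chips in 6 of 8 restricted pools, and its difference of 0.31 ± 0.12 was not called (limma, adjusted p = 0.115). The other Lamp2 probe set gave a difference of -0.016 (95% interval -0.22 to 0.18), so the result for Lamp2 depended on the probe set. Lamp1 stayed between 9.90 and 10.18 in all 10 pools, with a difference of 0.073 (95% interval -0.078 to 0.22).

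Becn1 had the lowest estimates of the 9 members for the slope at both durations and for restricted against control. At 1 week it was at 7.49 in the control pool and at 7.58, 7.49, 7.35 and 7.46 in the restricted pools, and at 1 month at 7.75 and then 7.75, 7.35, 7.30 and 7.47. It was lower than the control in both chips in 3 of 8 restricted pools, those at 10%, 20% and 30% for 1 month, and higher in none. The slope of -0.078 ± 0.042 was not called (limma, adjusted p = 0.240), and Becn1 had the largest chip SD of the 9 members, 0.331 against a median of 0.171 over all tested probe sets.

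**Figure D2:**
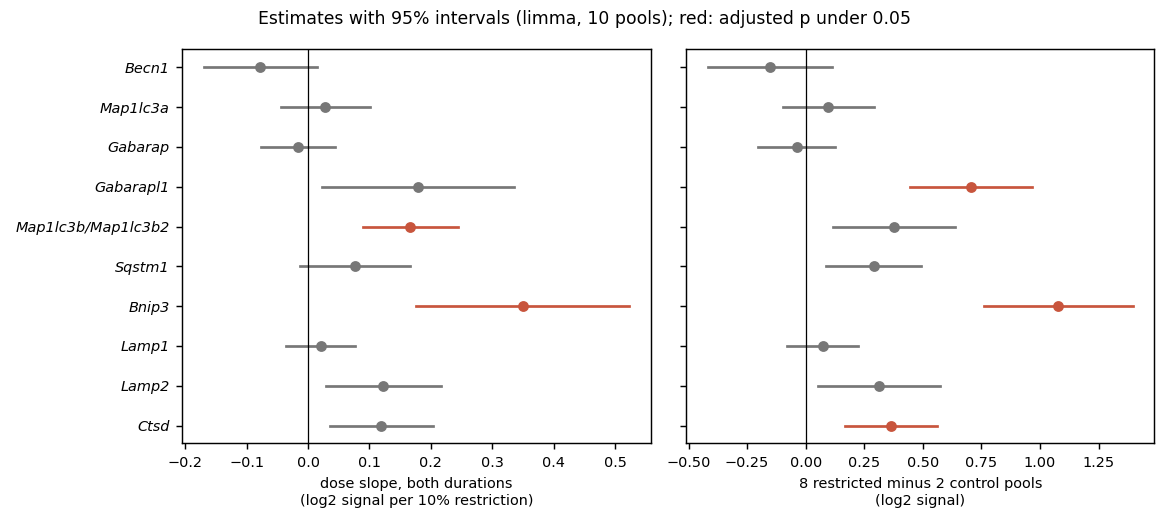
Estimates (points) with 95% intervals (lines) from limma over 10 pools for each member and the shared probe set; the left panel gives the slope in log2 signal per 10% restriction, the right panel the 8 restricted minus the 2 control pools in log2 signal, and red marks an adjusted p under 0.05. Bnip3 is called in both panels, Gabarapl1 and Ctsd in the right one, and the shared Map1lc3b and Map1lc3b2 probe set in the left one.

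In the comparison of restricted with control pools, 3 of the 9 members were called, all upward. Over all tested probe sets 5.93% were called, 4.34% upward and 1.6% downward. The median difference of the members was 0.29 against -0.026 over all tested probe sets. Counted pool by pool, 47 of 72 pairs of a member and a restricted pool were higher in both chips and 5 were lower, beside 33.8% and 36.1% of such pairs over all tested probe sets. Bnip3, Gabarapl1, Sqstm1 and Ctsd were higher in both chips in all 8 restricted pools, which held for 6.62% of tested probe sets. By pool means alone Lamp2 joined them, beside 15.1% of tested probe sets. These shares are not like for like. The members stood at percentiles 84.5 to 99.1 of mean log2 signal. All of them but Becn1 had a chip SD of 0.075 to 0.145, against a median of 0.171 over all tested probe sets. Agreement of 2 chips depends on that noise. The 72 pairs also shared 2 control pools, and the members were chosen with earlier results known.

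**Figure D3:**
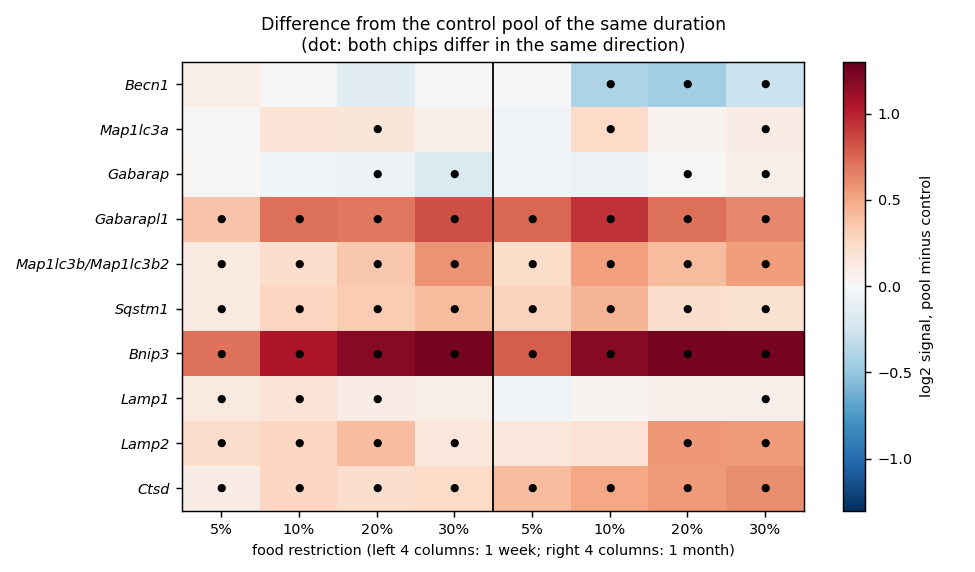
Difference in log2 signal of each restricted pool (columns, 4 levels at 1 week and 4 at 1 month) from the control pool of its duration for each member and the shared probe set (rows); red is higher, blue is lower, and a dot marks pools in which both chips differed in the same direction. Bnip3, Gabarapl1, Sqstm1, Ctsd and the shared probe set are higher with both chips in all 8 pools. Lamp2 is higher in all 8 by the pool difference and with both chips in 6. Becn1 is lower with both chips in 3 pools at 1 month.

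These calls rested on both control pools. Without the control pool at 1 week, the difference was 1.11 for Bnip3 (limma, adjusted p = 0.126), 0.76 for Gabarapl1 (adjusted p = 0.176) and 0.52 for Ctsd (adjusted p = 0.157). Without the control pool at 1 month it was 1.05 (limma, adjusted p = 0.0745), 0.65 (adjusted p = 0.154) and 0.21 (adjusted p = 0.364), in the same order. The sizes for Bnip3 and Gabarapl1 moved little while the calls were lost, and over all 9520 probe sets only 6 and 27 were called without these pools. Ctsd passed the threshold in 2 of the 10 fits that left out a pool. The slope of Bnip3 was also not called without either control pool (0.28 in both fits, adjusted p = 0.0809 and 0.0852) or without the 30% pool at 1 week (0.40, adjusted p = 0.0712).

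Marker signals of several cell types differed between the same pools. The adipocyte markers (8 of 10 on the array) had a mean log2 signal of 9.53 to 9.93 at 1 week and 9.64 to 10.16 at 1 month, with the control pool lowest in each. These markers did not move alike. Over the 10 pools Slc2a4 ran from 8.91 to 9.21 and Fabp4 from 12.11 to 12.51. Pnpla2 ran from 10.33 to 11.39 and Lep from 7.54 to 9.35. Acvr1c was itself called for restricted against control (0.88, limma, adjusted p = 0.0299). Macrophage markers (10 of 14) were highest in the control pools, 7.77 against 7.13 to 7.61 at 1 week and 8.42 against 7.33 to 7.75 at 1 month. Lymphocyte markers (7 of 13) ran from 2.65 to 7.16 at 1 week and from 2.80 to 7.20 at 1 month, highest in the controls. Exocrine pancreas markers (12 of 13) reached 12.12 in the 1 week controls and 6.59 after 1 week of 30% restriction, while the remaining 8 pools lay at 2.50 to 3.02. In bulk tissue, fewer cells of a type and less RNA per cell cannot be told apart.

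With the macrophage score in the model, the difference between restricted and control pools was 0.85 for Bnip3 (limma, adjusted p = 0.457), 0.42 for Gabarapl1 (adjusted p = 0.572) and 0.23 for Ctsd (adjusted p = 0.707), and 1 of the 9520 probe sets was called. With the lymphocyte score it was 0.89 for Bnip3 (limma, adjusted p = 0.00933) and 0.58 for Gabarapl1, both still called, and 0.32 for Ctsd (adjusted p = 0.175). Leaving out both pools that carried pancreas transcripts left the control pool at 1 month alone. The difference was then 1.11 for Bnip3, 0.76 for Gabarapl1 and 0.52 for Ctsd, as without the control pool at 1 week. With duration in the model both fits rest on the 1 month pools for this difference, so this is not a separate check.

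At each duration alone, no member's slope was called. At 1 week 0 of 9 members were called by limma, beside 0.294% of all tested probe sets. An unadjusted p under 0.05 was reached by 3 of 9 members and by 1918 of all 9520 probe sets. At 1 month 0 of 9 were called, beside 0.126% of all. Again 3 of 9 members had an unadjusted p under 0.05, beside 1256 of all 9520 probe sets. Bnip3 had slopes of 0.36 ± 0.12 at 1 week and 0.34 ± 0.12 at 1 month, which differed by -0.011 (95% interval -0.38 to 0.36). Lamp2 had 0.046 ± 0.054 at 1 week and 0.20 ± 0.054 at 1 month, a difference of 0.15 (95% interval -0.017 to 0.32). For the difference of slopes the adjusted p of every member was 0.999 in limma, and 0 of all 9520 probe sets were called, with 282 at an unadjusted p under 0.05.

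Between durations at matched levels, Bnip3 was 0.36 ± 0.055 higher at 1 month than at 1 week (limma, adjusted p = 0.0152) and was the only member called, beside 4.77% of all tested probe sets (3.21% higher and 1.55% lower at 1 month). The rats at 1 month were also older when the fat was taken. This comparison depended on how the chips were scaled. With each chip centred on its median it was 0.34 (limma, adjusted p = 0.121), with the second chips alone 0.045 (adjusted p = 0.728), and with the first chips alone 0.68 (adjusted p = 0.00134). The median over all tested probe sets was itself shifted by 0.068.

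Of 165 further genes of autophagy and the lysosome that were listed, 131 were on the array and 125 were tested. For the dose slope 6 rose and 0 fell, with a median of 0.0057 against -0.011 over all tested probe sets. For restricted against control 6 rose and 2 fell, with a median of 0.039 against -0.026. These shares were near or below the 9.4% and 5.93% of all tested probe sets. Calls for both comparisons fell to 0 without the control pool at 1 week, without the control pool at 1 month and without the pools that carried pancreas transcripts. With the macrophage score in the model 0 rose and 1 fell for the slope and 0 were called for restricted against control, and with the lymphocyte score 0 were called for the slope and 1 rose for restricted against control, Rragc. The calls given below for single genes were lost accordingly.

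Among other autophagy receptors (12 tested), 3 rose with dose and 0 fell, beside 5.71% and 3.69% of all tested probe sets. Optn, the ubiquitin-binding receptor optineurin, was at 7.35 in the control pool at 1 week and at 7.85, 8.13, 8.55 and 8.58 in the restricted pools, and at 1 month at 7.14 and then 7.77, 8.25, 8.13 and 8.20. All restricted pools were above their control, and its slope was 0.34 ± 0.070 (limma, adjusted p = 0.0162), close to that of Bnip3. Pink1, the kinase that marks damaged mitochondria for mitophagy, had a slope of 0.23 ± 0.057 (limma, adjusted p = 0.0318). Phb2, an inner mitochondrial membrane protein that binds LC3, had 0.11 ± 0.030 (adjusted p = 0.0455). Its difference between restricted and control pools was only 0.13 (limma, adjusted p = 0.470). Phb2 was higher in both chips in 5 restricted pools and lower in 2. The median slope of the list was 0.039.

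Of 10 tested initiation genes none was called by limma for slope or restriction, beside 9.4% and 5.93% of all tested probe sets. Uvrag, a partner of Beclin 1, had a slope of -0.15 ± 0.055 (adjusted p = 0.0945) and was lower in both chips in all 8 restricted pools, as were 5.56% of all tested probe sets, and Ulk1, the kinase that starts autophagy, had 0.15 ± 0.060 (adjusted p = 0.129). In membrane elongation and ATG8 conjugation (10 tested), Atg10, the enzyme that joins ATG12 to ATG5, rose with dose by 0.18 ± 0.048 (limma, adjusted p = 0.0424). Wdr45, which binds phosphoinositide on the growing membrane, was 0.54 ± 0.11 higher in restricted pools (limma, adjusted p = 0.0241). Of 11 fusion genes none was called, beside the same 9.4% and 5.93% of all, with slopes of 0.21 for Vps33a and -0.13 for Epg5.

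Lysosomal hydrolases moved in both directions. Of 13 tested proteases, Ctsk (cathepsin K) rose with dose by 0.17 ± 0.044 (limma, adjusted p = 0.0344), Ctsf (cathepsin F) was 0.45 ± 0.12 higher in restricted pools (adjusted p = 0.0482), and Ctss fell. Ctss encodes cathepsin S, a protease of antigen-presenting cells. Its log2 signal was 8.97 in the control pool at 1 week and 8.60, 8.50, 8.58 and 8.40 in the restricted pools, and at 1 month 9.42 and then 8.92, 8.62, 8.65 and 8.92. It was lower in both chips in all 8 pools and fell by 0.55 ± 0.10 (limma, adjusted p = 0.0188).

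Of 26 other hydrolases and cofactors, Pla2g15, a lysosomal phospholipase, was 0.77 ± 0.16 higher in restricted pools (limma, adjusted p = 0.0253) and rose with dose (0.26 ± 0.069, adjusted p = 0.0382). Ppt1, which removes palmitate from proteins, fell by 0.51 ± 0.12 (adjusted p = 0.0372). The list median was -0.046 for restricted against control. Scarb2, the membrane protein that carries glucocerebrosidase to the lysosome, was 0.48 ± 0.11 higher (limma, adjusted p = 0.0308) among 7 tested membrane proteins. There the steepest slopes, not called, were 0.19 ± 0.072 for Mcoln1, a lysosomal calcium channel (adjusted p = 0.103), and 0.12 ± 0.057 for Slc17a5, the sialic acid exporter (adjusted p = 0.166).

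Of 23 regulators, Rragc was called. It encodes a Rag GTPase that brings mTORC1 to the lysosome, and its log2 signal was 8.35 in the control pool at 1 week and 8.74, 8.92, 9.02 and 9.02 in the restricted pools, and at 1 month 8.37 and then 8.85, 9.002, 8.90 and 8.92. It was 0.56 ± 0.088 higher in restricted pools (limma, adjusted p = 0.00808), in both chips in all 8, and its slope of 0.16 ± 0.051 was not called (adjusted p = 0.0679). Prkaa1, a catalytic subunit of AMPK, had a slope of 0.19 ± 0.092 (adjusted p = 0.192) and a difference of 0.72 ± 0.20 (adjusted p = 0.0566). The proton pump of the lysosome, the vacuolar ATPase, had 0 of 13 tested subunits called for slope or restriction by limma. Over all tested probe sets 9.4% and 5.93% were called. The median slope of the subunits was 0.0078. Their steepest slopes were 0.071 ± 0.032 for Atp6v1d (adjusted p = 0.162) and 0.051 ± 0.048 for Atp6v1c1 (adjusted p = 0.503).

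**Figure D4:**
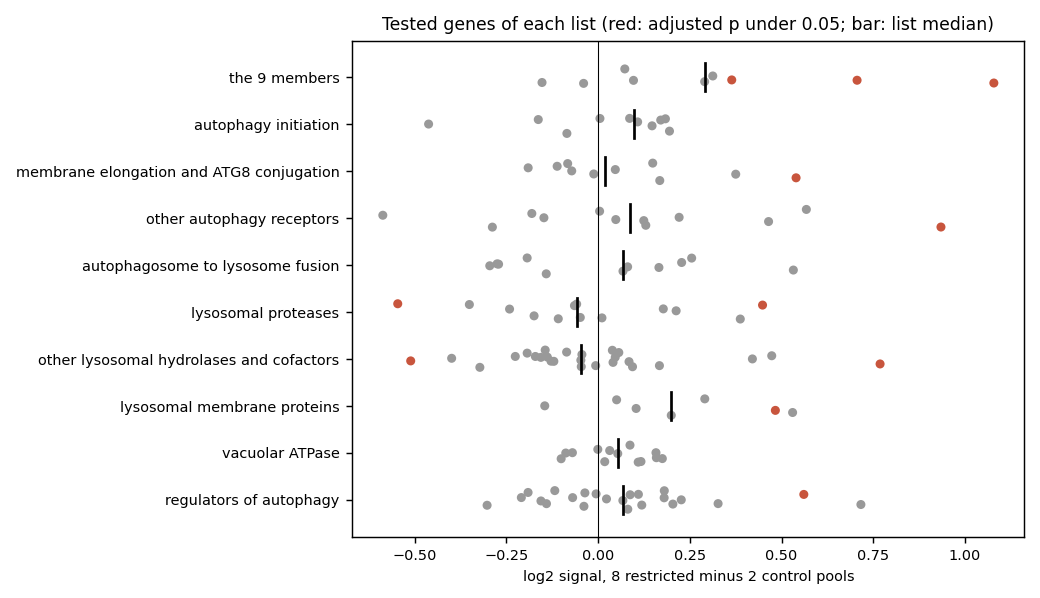
Difference in log2 signal, 8 restricted minus 2 control pools (horizontal axis), for each tested gene (points) of the 9 members and of 9 pathway lists (rows); red points had an adjusted p under 0.05 in limma and bars are list medians. The members' median lies at 0.29, and the list medians lie between -0.058 for lysosomal proteases and 0.20 for lysosomal membrane proteins.

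Over the 10 pools, with each duration centred on its mean, the genes whose pattern was most like that of Bnip3 were Nampt (Pearson r = 0.995), Pde3b (0.994) and Nudt6 (0.990). Nampt makes the precursor of NAD in its salvage route, and Pde3b breaks down cyclic AMP in adipocytes. These values describe 10 pools in which the control pools lay apart from the rest, and all genes were read from the same chips.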

How the data were processed

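Total RNA of rat fat pools was hybridised to 1-colour Affymetrix arrays. The authors deposited MAS5 signals, linear intensity values per probe set; its detection and change calls were left aside. Trimmed mean signals (trim 0.02) were alike within, and differed between, chip sets: 77.7 and 111.7 for first and second chips at 1 week, 98.5 and 98.1 at 1 month. Differences between durations therefore depend on scaling. The number of columns left unmapped was 0.

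After removal of 57 controls, signals under 1 were set to 1 and log2 was taken. Symbols came from the platform annotation, and those of 12748 probe sets were matched to the gene table of GRCr8. Probe sets in the lower 40% by mean log2 signal (below a signal of 22.8) were not tested. Pool means were fitted with limma 3.58.1 in R 4.3.3 (eBayes with intensity trend, two-sided, Benjamini-Hochberg over 9520 probe sets, threshold 0.05). The slope and the restricted against control fits had duration as covariate, and the duration fit had restriction level as a factor. The p-values measure the spread of pools around each fitted model, moderated across probe sets. No group had a replicate pool, so they measure no spread between replicate pools or between rats. Duplicate chips correlated at 0.971 to 0.982, and the number of pools, above all the 2 control pools, limits the precision. Fitting steps were tested on simulated data.

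Members and lists were chosen with earlier results of these data known. Named were all members, up to 4 called genes per list for the slope or else the 2 steepest, and the 3 genes most like the steepest member; list genes called only for restriction or duration were named after their values were seen. Alternatives covered scaling, filter, pseudocount (16), variance trend, replicate block, chips, pools, marker scores and other probe sets. Same-numbered chips of a duration deviated from their pool means with correlations of 0.016 to 0.18 between pools at 1 week and -0.087 to 0.22 at 1 month; the number marks the chip of a pool, not an animal.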

Additional observations from a re-analysis of the deposited data

How the results depend on the processing

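The count of members called for the dose slope (1) was 4 with the replicate block at chip level, 0 to 2 when a pool or the chips of either number were left out, and 0 without the pools carrying pancreas transcripts, with the lymphocyte or the macrophage score, or over the restricted pools alone (chosen after seeing the data). For the slope at 1 week and at 1 month (0) the replicate block gave 1 each. For restricted against control (3) the count was 0 to 4 when a pool or the chips of 1 number were left out, 0 without the pancreas pools, 0 with the macrophage score, and 2 with no filter on low values or no intensity trend, where Ctsd was not called (limma, adjusted p = 0.0812 and 0.0737). For 1 month minus 1 week (1) it was 0 with median centring, quantile normalization, no intensity trend or without the pancreas pools. It was 2 with the replicate block, 4 and 7 with the second and the first chips alone, and 0 to 1 without a pool. This comparison called 454 of all probe sets in the main fit, 1536 with the second chips alone and 4284 with the first. It called 71 with median centring, 267 with quantile normalization, 30 with no intensity trend and 43 without the pancreas pools. Pairs of a member and a pool lower in both chips (5) became 2 with median centring. The replicate block fitted the 20 chips as observations, with the pool as random block and the chip set as a fixed effect. The 2 chips of a pool are technical repeats, so this fit held no more than the 10 pools. It called 1695 of all probe sets for restricted against control, against 565 in the main fit. For the dose slope it called 1729, against 895, and for 1 month minus 1 week 1320, against 454. For the slope at 1 week it called 698, against 28, and for the slope at 1 month 264, against 12. In it the slopes of Gabarapl1 (limma, adjusted p = 0.0299), Lamp2 (0.0452) and Ctsd (0.0157) were called in addition. So was the restriction difference of Sqstm1 (limma, adjusted p = 0.0185). The sign of near-zero slopes turned for Becn1 (0.0099 with the second chips alone), Lamp1 (-0.014, quantile normalization), Gabarap (0.029 centred, -0.043 to 0.011 when a pool was left out, the highest without the 30% pool at 1 week, 0.016 without the pancreas pools, 0.0047 and 0.0021 with the lymphocyte and macrophage scores), and in other probe sets of Sqstm1 (-0.13 and -0.026) and Lamp2 (-0.0016). The sign of the restriction difference turned for Becn1 (0.066, macrophage score), Lamp1 (-0.00085, quantile normalization), Gabarap (0.078 centred, 0.0064 with the second chips alone, 0.010 and 0.067 with the lymphocyte and macrophage scores), and in other probe sets of Sqstm1 (-0.32 and -0.31) and Lamp2 (-0.016). The Sqstm1 probe set at -0.32 had not passed the filter on low signals, with pool signals of 3.37 to 11.9. Bnip3, Gabarapl1 and Ctsd kept their direction for slope and restriction in all alternatives run. The causes were not tested. Median centring moved the median over all tested probe sets from -0.026 to 0.091 for restricted against control.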

Other observations

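Between durations, 9 of the 125 further autophagy and lysosome genes were higher at 1 month than at 1 week in limma and none was lower, beside 3.21% and 1.55% of all tested probe sets. In 8 of the 10 fits that left out a pool 0 were called, and with quantile normalization 3 were higher and 1 was lower. Of the 9, 5 were among the 13 tested subunits of the vacuolar ATPase, the proton pump that acidifies the lysosome. Atp6v1e1 was 0.41 ± 0.074 higher (limma, adjusted p = 0.0244), Atp6v0e1 0.37 ± 0.062 (0.0187), Atp6v1g1 0.30 ± 0.073 (0.0494), Atp6v1d 0.27 ± 0.062 (0.0463) and Atp6v1f 0.25 ± 0.059 (0.0463). Atp6v0e1 had log2 signals of 9.43 to 9.55 in the 5 pools at 1 week and of 9.82 to 9.99 at 1 month. The other 4 were Tmem192, a lysosomal membrane protein (0.54 ± 0.091), Asah1, the acid ceramidase (0.35 ± 0.085), Lamtor2, a subunit of the Ragulator complex (0.34 ± 0.068), and Gm2a, the ganglioside activator (0.30 ± 0.070). All rats started at the same age, so duration was confounded with age when the fat was taken. Duration was also confounded with the scaling of the chips. With each chip centred on its median, 0 of the 125 were called by limma, and the estimate of Tmem192 was 0.52 (adjusted p = 0.0519).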
